A study of Mus musculus with 2 samples.

Results

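The cells described here were 243 T cells of the sorted mouse brain in which no CD8 transcript was read. They were selected on measured values. A kept cell barcode (at least 500 genes detected and at most 10% of its transcripts mitochondrial) entered when it had a UMI of at least 3 of the 7 genes Cd3d, Cd3e, Cd3g, Trac, Trbc1, Trbc2 and Lck and 0 UMIs of Cd8a, Cd8b1, Cd79a and Ncr1. A UMI, or unique molecular identifier, tags 1 captured transcript molecule. The 243 cells were 2.41% (95% exact binomial interval 2.12 to 2.73%) of the 10076 kept cells of the sorted sample. Both samples of the series together held 19443 kept cells.

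The series profiled single brain cells with a droplet 3' RNA assay, to ask how DNA sensing in the cytosol bears on resident cells and on lifespan. Wild-type (WT) mice and mice lacking STING (STING-KO), the adaptor protein of the cytosolic DNA sensor cGAS, were used. The sorted sample pools males of both genotypes at 3 and 12 months, and its cells were FACS-sorted, by a gate that the sources used here do not name. The other sample pools males and females of both genotypes at 2 and 24 months (1 of its age labels reads 240mo) and is whole, unsorted brain. The design text gives 2 mice grouped per genotype and age. Tissue in both samples was enzyme-digested at 37 C, strained, cleared of debris and treated with a red cell lysis buffer. In the unsorted sample the same selection gave 8 cells of 9367, too few to describe, so all values below are from the sorted sample.

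The barcodes of the sorted sample carry 4 different suffixes. No label says what a suffix stands for or ties a suffix to a genotype or an age, so the suffixes are neither groups nor replicates, and no comparison of WT with STING-KO or of ages was made. With 1 pooled sample there was no replicate error and no test. Levels are given in CPM (UMIs of a gene per 1000000 UMIs of the class), with the range over suffixes as a description and with exact 95% intervals that cover counting error only.

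T cells recognise antigen through a receptor made either of an alpha and a beta chain or of a gamma and a delta chain, both held together by the CD3 proteins. Alpha-beta T cells carry a co-receptor: CD4 on helper and regulatory cells, which see peptides on MHC class II, and CD8 on cytotoxic cells, which see peptides on MHC class I. Gamma-delta cells mostly carry neither, and some of them make interleukin 17 quickly and reside in barrier tissues, including the meninges around the brain. Other receptor-bearing cells, such as natural killer T and mucosal-associated invariant T cells, share transcription factors and surface lectins with innate lymphocytes. T cells in brain preparations can come from the meninges, the choroid plexus, the tissue itself or blood.

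Suffixes 1 to 4 held 69, 25, 71 and 78 of the cells, with 589790 UMIs in all, a median of 2043 UMIs and 832 genes per cell, and a median mitochondrial share of 2.38%. The comparison class was 385 CD8 T cells, chosen by the same T cell genes but with at least 1 UMI of Cd8a or Cd8b1 (46, 42, 137 and 160 by suffix, 946076 UMIs, median 2211). The T cells without CD8 reads were 38.7% (34.9 to 42.6%) of the 628 cells in both classes. By suffix that share was 60%, 37.3%, 34.1% and 32.8%, and without suffix 1 it was 33.9% (29.8 to 38.2%). Suffix 1 stood apart, with more cells lacking CD8 reads than having them, while the other 3 suffixes were close to each other.

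Near the limits of the selection, 29 of the cells had 3 of the T cell genes, and 38 otherwise eligible cells had only 2. On the CD8 side, 58 CD8 T cells had a single Cd8a or Cd8b1 UMI, and their median was 1645.5 UMIs. A cell read shallowly can miss its CD8 transcripts. When CD8 T cells were thinned to 1000 UMIs each, 54 of 375 (14.4%, 11.01 to 18.4%) showed no CD8 UMI, and at 2043 UMIs each 8 of 211 (3.79%, 1.65 to 7.33%) showed none. All thinned cells had a CD8 UMI at full depth, so CD8 T cells already missed there are not in these counts. At 2043 UMIs, 174 shallower CD8 T cells were left out as well. How many of the 243 cells are CD8 T cells with missed reads was not tested. Among the sorted barcodes, 85 sequences occurred under more than 1 suffix, and 6 of the 243 cells held such a sequence. None was shared between cells of the class, and without those 6 the share with a Cd4 UMI was 19.8%, the share with a Trdc UMI 8.44% and the share with innate-like reads 33.8%.

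The T cell identity of the class is fixed by its selection: Cd3e was read in 174 cells (71.6%) and Cd3g in 208 (85.6%), with 342 and 681 UMIs. A list of 18 further T cell genes that played no part in the selection summed to 4513 CPM, against 4830 CPM in CD8 T cells, and no gene of it differed 2-fold (median log2 ratio −0.06). Natural killer (NK) cells, 95 cells with an Ncr1 UMI and fewer than 3 of the T cell genes, had 0 UMIs of Cd3g and of Trac. The 7 T cell genes still summed to 994 CPM in NK cells, against 6699 CPM in the T cells without CD8 reads, with Trbc2 at 212 CPM. The limit on these genes was part of the choice of NK cells, so nothing is read from this contrast.

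Against CD8 T cells, 8104 genes had at least 10 UMIs over both classes. Of these, 467 (5.76%) were at least 2-fold higher in the cells without CD8 reads and 448 (5.53%) at least 2-fold lower on the log2(CPM + 1) scale, with a median log2 ratio of 0.01. These shares are the background for the gene lists below.

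Cd4, the co-receptor of helper T cells (chromosome 6, 124864692 to 124888221, minus strand, GRCm38), was read in 48 of the 243 cells (19.8%, 14.9 to 25.3%) with 65 UMIs. Its level was 117, 115, 149.8 and 45.3 CPM in suffixes 1 to 4 and 110.2 CPM (85.1 to 140.5) over all. The share of cells with a Cd4 UMI was 27.5%, 28.0%, 22.5% and 7.69%, so suffix 4 was the low one and the other 3 were alike. Without suffix 4 the share was 25.5%. Suffix 4 was also read most shallowly, with a median of 1339 UMIs per cell against 2829, 2740 and 1829 in suffixes 1 to 3. The part of depth in its low share was not tested. In CD8 T cells Cd4 was read in 6 cells (1.56%) at 8.46 CPM, which makes the level 13.03-fold higher (6.24 to 31.5) in the cells without CD8 reads. The log2 ratio of 3.56 became 2.89 without suffix 3 and 4.15 without suffix 4. No Cd4 UMI was found in 95 NK cells (limit 3.16%) or in 741 B cells (limit 0.405%), and microglia (0.160% of cells) and choroid plexus cells (0.0438%) were near 0. Thinned to 1000 UMIs per cell, 10.4% of the cells kept a Cd4 UMI, against 0.80% of CD8 T cells. Most Cd4-positive cells rested on little: 34 of the 48 had 1 UMI, and the highest had 4.

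**Figure D1:**
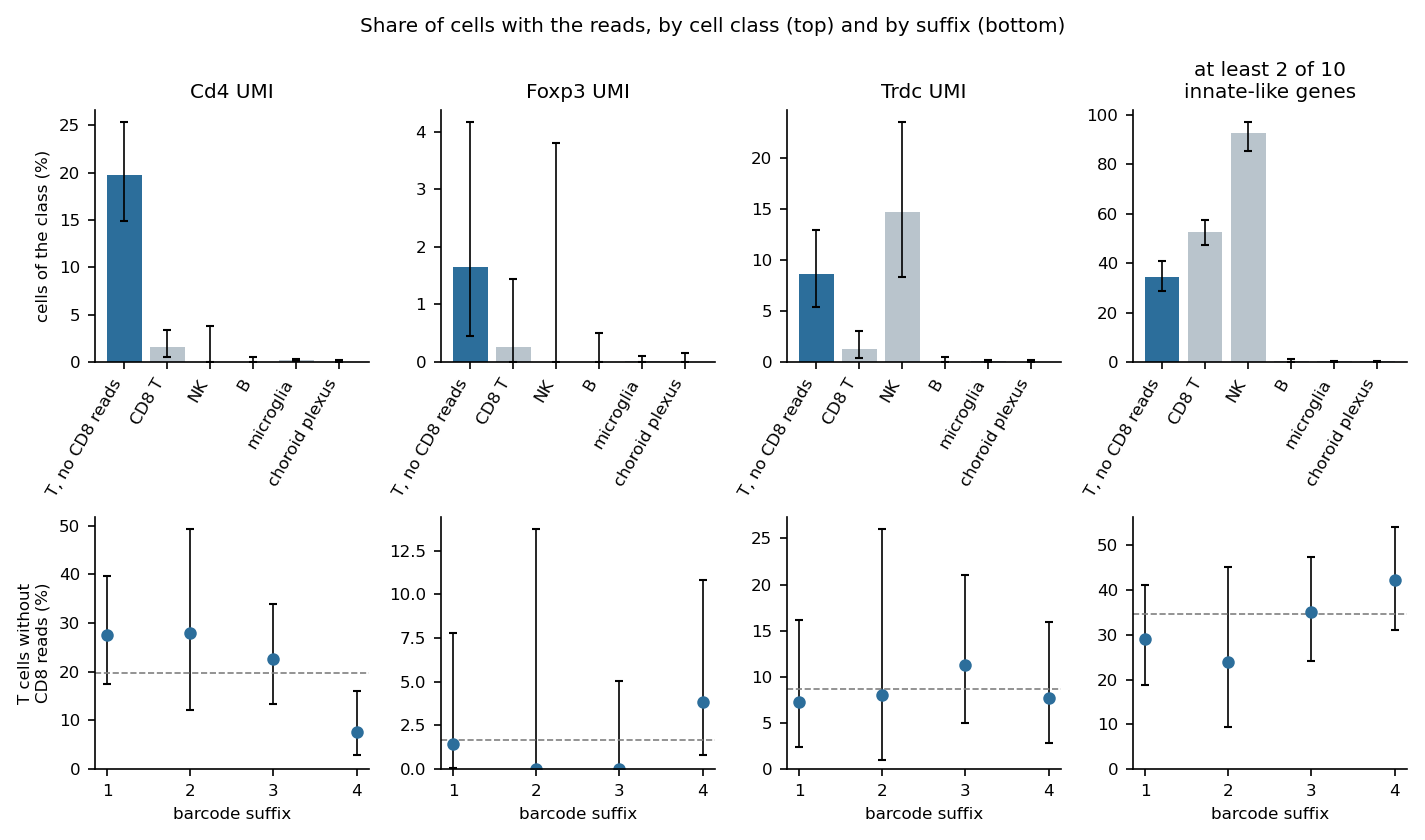
Share of cells (percent) with a UMI of Cd4, Foxp3 or Trdc, or with at least 2 of 10 innate-like genes. Upper panels compare 6 cell classes with exact 95% binomial bars; lower panels give the 243 T cells without CD8 reads by barcode suffix, with a dashed line at the value over all of them. Cd4 reads stand at 19.8% in these cells and at 1.56% in CD8 T cells. They are lowest in suffix 4 (7.69%), which also had the fewest UMIs per cell (median 1339).

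Of the helper T cell genes, 9 were measured in this comparison; 5 were at least 2-fold higher than in CD8 T cells and none was lower (median log2 ratio 1.02, summed 892 against 501 CPM). Cd40lg, the CD40 ligand through which helper cells license B cells and dendritic cells (chromosome X, 57212143 to 57224042), was read in 35 cells at 79.3, 28.8, 74.9 and 90.6 CPM by suffix. CD8 T cells had 5.71 to 19.3 CPM, so the suffixes of the classes did not overlap, and the pooled levels of 74.6 and 10.6 CPM differed 7.06-fold (3.50 to 15.7). Zbtb7b, the transcription factor ThPOK that fixes the CD4 lineage, was at 22.0 against 4.23 CPM, the co-stimulatory receptor Tnfrsf4 (OX40) at 15.3 against 1.06 CPM and Icos at 76.3 against 37.0 CPM. Cd28 did not differ (200.1 against 202 CPM). Tnfrsf4 rested on few UMIs. Without clusters 4 and 6, described below, it had 8 UMIs and fell under the minimum of 10 UMIs over both classes. The helper list then had 4 of 8 measured genes higher and none lower (median log2 ratio 1.08). A Cd40lg UMI was found in 5 of the 48 cells with a Cd4 UMI and in 30 of the 195 without (10.4% and 15.4%), and Zbtb7b was read in none of the 48.

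Cells with a Cd4 UMI also held genes of recirculating T cells: 26 of 48 had Lef1, 23 had the lymph node homing receptor Ccr7 and 16 had Igfbp4. The tissue-entry receptor Cxcr6 was read in 12 and the chemokine Ccl5 in 15. A UMI of any of the killer-lectin genes Klra7, Klrd1, Klre1, Klrk1 and Klrb1c was found in 5 of the 48, against 66 of the 195 cells without Cd4. Of 5305 genes measured between cells with and without a Cd4 UMI, 368 (6.94%) were at least 2-fold higher with it. The highest of these that met the naming rule were Il12b, Cxcl2, Krt18 and Slamf1. The split was made on the reads of 1 gene, so nothing is read from those counts.

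Regulatory T cells, which restrain other T cells, were rare by their reads. Foxp3, their defining transcription factor (chromosome X, 7573644 to 7595245), had 6 UMIs in 4 of the 243 cells (1.65%, 0.450 to 4.16%), 1 in suffix 1 and 3 in suffix 4. CD8 T cells had a Foxp3 UMI in 1 of 385 (0.260%). Of the 4 cells, 2 also had a Cd4 UMI, 2 had Ikzf2 (Helios), 2 had Tnfrsf18 (GITR) and 1 had Ctla4. None had Il2ra, the high-affinity interleukin 2 receptor chain of regulatory cells. In its best-supported case, a suffix 4 cell of 2624 UMIs had 2 UMIs of Foxp3, 5 of Ikzf2 and 1 of Cd4.

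Other genes of the regulatory list were read in more cells than Foxp3. Of 8 measured, 4 were at least 2-fold higher than in CD8 T cells and none lower, against the 5.76% background (median log2 ratio 1.08, summed 409 against 203 CPM). Ikzf2 was read in 32 cells at 91.6 against 29.6 CPM, and Izumo1r, the folate receptor 4 of regulatory and resting CD4 cells, in 23 cells at 59.3 against 12.7 CPM. Tnfrsf9 (4-1BB) was at 22.0 against 5.28 CPM, and its log2 ratio of 1.87 became 1.22 without suffix 1. The other higher gene, Tnfrsf4, is also in the helper list. Ctla4 (20.3 against 16.9 CPM) and Tnfrsf18 (122 against 82.4 CPM) differed by less than 2-fold, and Il10 and Lrrc32 had 0 UMIs. Activated T cells of other kinds use these genes too. Without clusters 4 and 6 described below, 32 cells that held myeloid or choroid plexus RNA, 3 genes of the list were higher and 1 lower. The CD8 T cells were left as they were in this and in all other values without clusters 4 and 6. With cells holding at least 3 of 10 microglia markers left out, the median log2 ratio of the list was 0.45.

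Gamma-delta receptor reads formed the other clear group. Trdc, the delta chain constant gene (chromosome 14, 54142851 to 54148868, plus strand, upstream of Trac at 54220521 to 54224206), had 135 UMIs in 21 of the 243 cells (8.64%, 5.43 to 12.9%). By suffix its level was 191, 86.4, 357 and 196 CPM, in 5, 2, 8 and 6 cells, and it was 229 CPM (192 to 271) over all. CD8 T cells had 6.34 CPM in 5 cells, a 36.1-fold difference (16.2 to 100.1), and the log2 ratio of 4.97 was 3.99 without suffix 3 (175 CPM) and 6.54 without suffix 4. Trdc was also read in NK cells, in 14 of 95 (14.7%) at 77.8 CPM, and hardly in B cells, microglia or choroid plexus cells (0, 0.09996 and 0.0438% of cells). Thinned to 1000 UMIs per cell, the share was 8.23% in the T cells without CD8 reads and 11.8% in NK cells. A Trdc read was thus common to both classes.

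Of the gamma chain constant genes, Tcrg-C1 (chromosome 13, 19214103 to 19217024) was at 102 CPM in 21 cells against 9.51 CPM in CD8 T cells. Suffix 3 held most of it: without that suffix the level was 45.7 CPM and the log2 ratio 1.87 in place of 3.29. Tcrg-C4 (19344558 to 19352756) was at 64.4 against 19.0 CPM. Tcrg-C2 (19304649 to 19307551, minus strand) was not higher, at 79.7 against 84.6 CPM. In NK cells Tcrg-C1 and Tcrg-C2 had 0 UMIs, and Tcrg-C4 had 7 (30.2 CPM). The annotated Tcrg-C1 and Tcrg-C2 sequences are 96.1% identical and Tcrg-C4 is 70.7% and 71.9% identical to them, so reads could be split between the first pair. In the whole gamma-delta list, 3 of 5 measured genes were at least 2-fold higher and none lower (median log2 ratio 1.71, summed 488 against 132 CPM).

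Within the class, gamma reads were more frequent in cells with delta reads, but most cells with a gamma read had no delta read. Any of Tcrg-C1, Tcrg-C2 and Tcrg-C4 was read in 17 of the 21 Trdc-positive cells and in 31 of the 222 others; for Tcrg-C1 alone the counts were 12 and 9. The alpha chain gene Trac went the other way, with a UMI in 2 of the 21 and in 162 of the 222, although Trac could help a cell to be selected. A beta chain constant gene was read in 19 of 21 and in 218 of 222, but both of these genes were part of the selection too, and nothing is read from them. Cd4 was read in none of the 21. Trdc gave 1 to 20 UMIs per positive cell with a median of 5, and 15 cells had at least 3. Variable segments of all receptor chains together gave 46 UMIs in 37 cells, over 30 of 176 genes, too few to type receptors with this 3' assay.

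Most Trdc-positive cells were of 1 of 2 kinds by their other reads. At least 1 of Il17a, Cd163l1 and Blk, genes of interleukin 17-producing gamma-delta cells, was read in 10 of the 21, and at least 1 of the killer-lectin genes in 10 of the 21. No cell had both. Of the 21, 11 lay in a single expression cluster (cluster 5 below) and all carried Cxcr6 (1 to 9 UMIs) and Tmem176b (1 to 11 UMIs), with 0 UMIs of Ccl5. Another 8 lay in cluster 2 and all carried Ccl5 (10 to 63 UMIs) and Klrd1 (2 to 7 UMIs), with 0 UMIs of Il17a, Cd163l1, Blk and Tmem176b. Outside both clusters, 1 cell in cluster 0 had 3 UMIs of Lef1 and 1 of Ccr7, and 1 cell in cluster 1 had 4 UMIs of Nkg7. The clusters were built from these genes too, so the contrast describes the cells and is no test of it. Between cells with and without Trdc, 777 of 5305 genes (14.6%) were at least 2-fold higher with it; Actn2, Aqp3, Pdcd1 and Tnfrsf9 stood among the highest by the naming rule, and nothing further is read from a split made on Trdc itself.

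**Figure D2:**
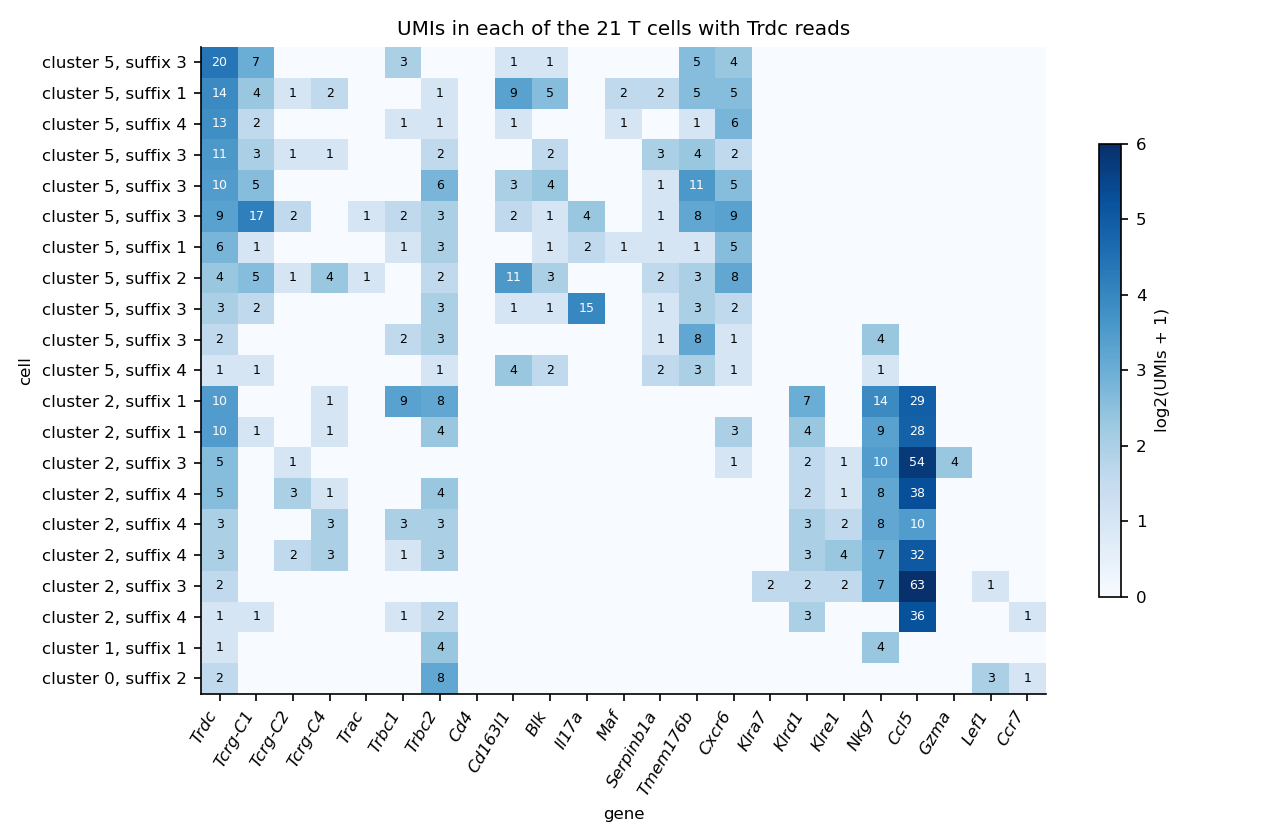
UMIs of 23 genes (columns) in each of the 21 T cells without CD8 reads that had a Trdc UMI (rows, grouped by expression cluster); colour is log2(UMIs + 1). The 11 cells of cluster 5 hold Cxcr6 and Tmem176b and lack Ccl5, while the 8 cells of cluster 2 hold Ccl5 and Klrd1 and lack Il17a, Cd163l1 and Blk. The other rows are 1 cell of cluster 0 and 1 of cluster 1.

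The interleukin 17 list held the largest contrast of the lists named here: 7 of 10 measured genes were at least 2-fold higher than in CD8 T cells and none lower (median log2 ratio 2.54). Its summed level was 824 CPM (485 to 1555 over suffixes) against 175 CPM (97.3 to 205), with no overlap. In NK cells the list summed to 531 CPM (422 to 742 over suffixes of at least 20 cells), so those ranges did overlap. Tmem176b was at 320 CPM in NK cells, whereas 7 of 10 measured genes were at least 2-fold lower there and none was higher. Cd163l1, the scavenger receptor SCART1 (chromosome 7, 140218267 to 140231145), was read in 8 cells, all with Trdc. It was at 42.0, 158, 40.3 and 37.8 CPM by suffix (1, 1, 4 and 2 cells) and at 0 in CD8 T cells, at least 17.1-fold higher by a floor of 3 UMIs over the class. Blk, a Src family kinase, was at 35.6 against 1.06 CPM in 10 cells (log2 ratio 4.15, and 3.36 without suffix 3). The membrane proteins Tmem176b (309 against 49.7 CPM, 50 cells) and Tmem176a (178 against 32.8 CPM, 37 cells) and the transcription factor Maf (45.8 against 23.3 CPM) were read beyond the Trdc-positive cells. Without suffix 3, Tmem176b was at 185 CPM and its log2 ratio 1.86 in place of 2.61.

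Il17a itself (chromosome 1, 20730905 to 20734496) rested on 25 UMIs in 6 cells, 3 of them with Trdc, with 1 to 15 UMIs per cell. Its level was 9.33, 0, 132 and 0 CPM by suffix and 42.4 CPM over all, against 0 UMIs in CD8 T cells (at least 13.4-fold). Suffix 3 held nearly all of it, and without that suffix the level was 4.81 CPM. Serpinb1a, a protease inhibitor, likewise went from 57.6 to 24.03 CPM without suffix 3 and kept a log2 ratio of 2.05 in place of 3.22. The transcription factor Sox13 and the receptors Il23r and Il1r1 had 1 UMI each, and Il17f, Il22 and Ccr6 had none. The median log2 ratio of the list without suffix 3 was 1.89.

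Innate-like reads, a UMI of at least 2 of 10 genes that include Zbtb16, Klrb1c, Klrb1b, Klrk1, Klrd1, Cxcr6, Il18r1, Il18rap and Il2rb, were present in 84 of the 243 cells (34.6%, 28.6 to 40.9%). The share was 29.0%, 24%, 35.2% and 42.3% by suffix. Such reads were not particular to these cells: CD8 T cells had it in 202 of 385 (52.5%) and NK cells in 88 of 95 (92.6%). At 1000 UMIs per cell the shares were 20.8% (15.7 to 26.6%), 27.2% (22.8 to 32.0%) and 82.8%, so the order was the same and the intervals of both T cell classes overlapped. B cells, microglia and choroid plexus cells had 0.405%, 0.320% and 0.219%.

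By gene, the innate-like list of 20 split both ways: of 16 measured, 5 were at least 2-fold higher than in CD8 T cells and 1 lower, with a median log2 ratio of −0.04. Zbtb16, the transcription factor PLZF of innate-like T cells (chromosome 9, 48654297 to 48836222, minus strand), was read in 1 cell of each T cell class. Klrb1c (NK1.1) was read in 17 cells at 39.0 against 12.7 CPM and at 855 CPM in NK cells, and Klrb1b in 7 cells at 15.3 CPM against 0. Klrk1 (NKG2D; 175 against 260.0 CPM), Klrd1 (CD94; 212 against 372 CPM) and Il2rb (179.7 against 174 CPM) did not differ 2-fold. Cxcr6 was at 182, 259, 668 and 483 CPM by suffix, 402 against 492 CPM in all, and at 290.7 CPM without suffix 3. Xcl1, a chemokine for cross-presenting dendritic cells, was the lower one, at 232 against 502 CPM, or 282 CPM without clusters 4 and 6, where it was within 2-fold and the list had 3 higher genes and none lower. The signalling adaptors Fcer1g (434 against 174 CPM) and Tyrobp (397 against 178 CPM) counted as higher, but myeloid cells also make them: without clusters 4 and 6 they were at 230.0 and 171 CPM.

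Receptor segments of invariant cells were nearly unread. Traj18, the joining segment of natural killer T cells, had reads in 10 cells at 18.7 CPM against 9.51 CPM, and Trav11 and Trav11d had 0 UMIs. From the group 2 innate lymphoid list, 4 genes were measured, with 1 higher and 1 lower. Gata3 was at 93.3 against 76.1 CPM in 42 cells, and Il5, Il13 and Il17rb had 0 UMIs. Between cells with and without innate-like reads, 716 of 5305 genes (13.5%) were at least 2-fold higher with them, led by Klrb1c, Klrc2, Klre1, Klrc1 and Gzma; Klrb1c was part of that selection, and nothing further is read from this split.

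The 4 kinds of reads overlapped in part. Of 48 cells with Cd4, 10 had innate-like reads, and of 21 with Trdc, 15 had them. Of 4 with Foxp3, 2 had Cd4 and 1 had innate-like reads, and no cell had Trdc with Cd4 or Foxp3. None of Cd4, Foxp3, Trdc or innate-like reads was found in 113 cells (46.5%, 40.1 to 53.0%), whose median was 1894 UMIs. In those 113, Lef1 was read in 53, Ccr7 in 38, Igfbp4 in 37 and Cd40lg in 22. The class therefore held a large remainder that none of these genes typed at this depth.

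The genes that differed most from CD8 T cells, by the naming rule (at least 50 CPM in a class, at least 2-fold, suffix ranges apart), were 21 higher and 13 lower. The higher ones not yet described were led by Il1b, Ly6c1, Igfbp4 and Tspan32. Ly6c1, a surface protein of central memory and other T cells, was read in 34 cells at 145, 187, 57.6 and 30.2 CPM by suffix, against 0 to 9.65 CPM, and was 18.6-fold higher (7.53 to 59.5). Igfbp4, a binding protein of insulin-like growth factors that naive T cells express, was read in 56 cells at 219, 359.8, 132 and 90.6 CPM against 22.4 to 59.5 CPM and was 5.72-fold higher (3.79 to 8.89). Both were highest in suffixes 1 and 2. Tspan32, a tetraspanin, was at 161 against 35.9 CPM and Ass1, the arginine-making argininosuccinate synthase, at 212 against 81.4 CPM. Cd5, a brake on receptor signalling and a gene of the helper list, differed by less than 2-fold and did not meet the naming rule. It was at 134 against 77.2 CPM with suffix ranges that did not overlap (112 to 161 against 52.9 to 97.3). Of the higher genes, 3 rested on clusters 4 and 6: without them the log2 ratio of Il1b went from 4.20 to 1.38, that of Ctsh from 1.72 to −0.62 and that of Cd300c2 from 1.72 to −0.21.

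**Figure D3:**
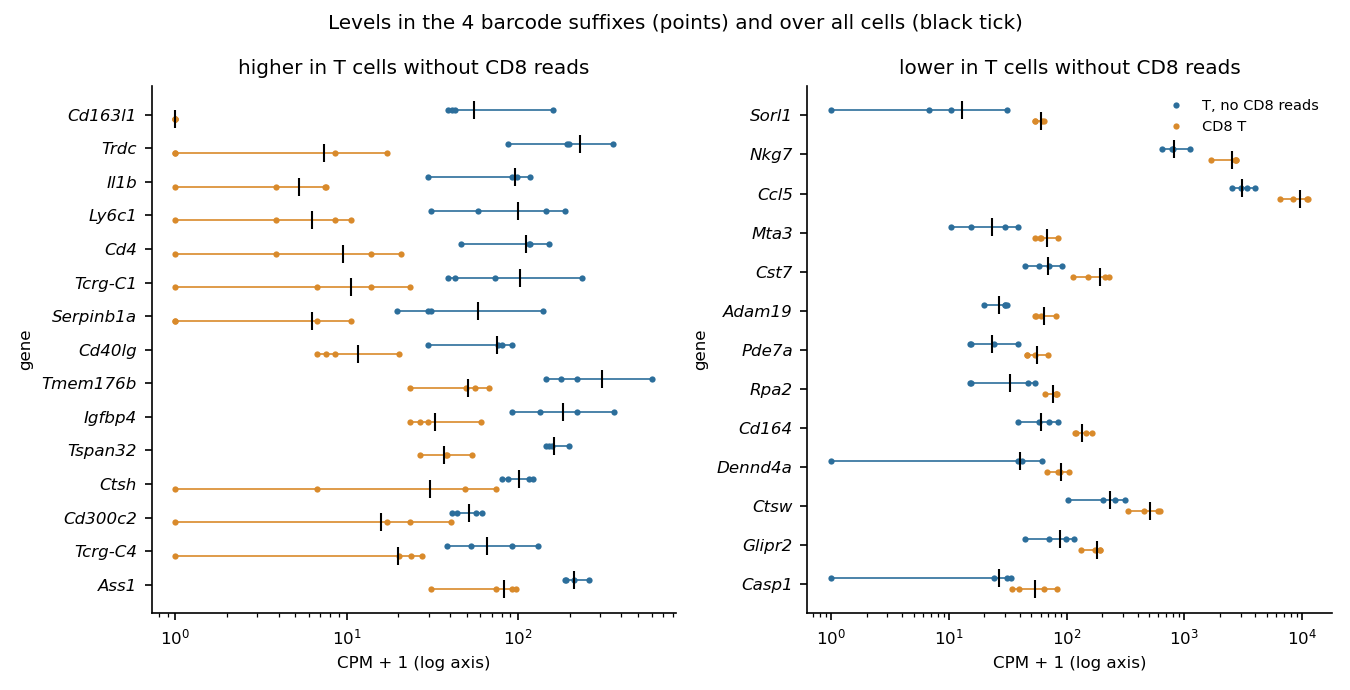
Levels of the named genes, higher (left panel) or lower (right panel) in the 243 T cells without CD8 reads than in CD8 T cells, as CPM + 1 on a log axis. Each point is 1 of 4 barcode suffixes, which are not replicates, and the black tick is the level over all cells of the class. Ly6c1 and Igfbp4 are among the higher genes and Nkg7 and Ccl5 among the lower, with suffix points apart in each.

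The 13 lower genes were led in abundance by cytotoxic ones. Ccl5, a chemokine stored in the granules of memory CD8 and NK cells, was at 2520 to 3941 CPM over suffixes, against 6541 to 11254 CPM in CD8 T cells, and 3096 against 9529 CPM over all (3.08-fold lower). Nkg7, a granule protein, was at 649, 806, 789 and 1110 CPM by suffix against 1673 to 2736 CPM, and was read in 96 of 243 cells against 360 of 385 (3.15-fold lower). Both genes were lower in every suffix. Sorl1 (11.9 against 59.2 CPM), Cst7 (67.8 against 192 CPM) and Ctsw (234 against 511 CPM) were lower as well, the last 2 being the protease inhibitor cystatin F and the protease cathepsin W of cytotoxic lymphocytes.

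Across the cytotoxic list, 9 of 20 measured genes were at least 2-fold lower and none higher, against backgrounds of 5.53% and 5.76% (median log2 ratio −0.91). The summed level was 5322 CPM (4587 to 6886 over suffixes) against 14789.5 CPM (10001 to 17271). Gzmk, the granzyme of ageing-associated memory T cells, was at 47.5 against 291 CPM, Gzmb at 52.6 against 160 CPM and the transcription factor Eomes at 11.9 against 37.0 CPM. Single suffixes moved some of these ratios. The log2 ratio of Gzmb, −1.58, was −0.95 without suffix 3 and −2.82 without suffix 4, and that of Gzmk, −2.59, was −3.27 without suffix 2. That of perforin (Prf1), −0.91, was 0.12 without suffix 3 and −1.86 without suffix 4, and that of Gzmm, −2.64, was −3.35 without suffix 4. Gzma was at 117 against 125 CPM, but at 58.6 against 132 CPM without suffix 1. Without clusters 4 and 6, 8 genes were lower and the median was −0.89.

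Genes of naive and recirculating T cells were the counterpart: 5 of 15 measured were at least 2-fold higher and none lower (median log2 ratio 0.62, summed 1955 against 1190 CPM). Ccr7 was read in 65 cells at 289, 317, 173 and 75.5 CPM by suffix, 210.2 against 96.2 CPM in all, and was lowest in suffix 4. Klf2, which sustains recirculation, was at 91.6 against 44.4 CPM (75.9 CPM without clusters 4 and 6, within 2-fold, which leaves 4 higher genes in the list), the genome organiser Satb1 at 115 against 50.7 CPM and the interleukin 6 receptor gene Il6ra at 49.2 against 11.6 CPM. The transcription factor Lef1 (281 against 162 CPM, 93 cells) was within 2-fold.

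**Figure D4:**
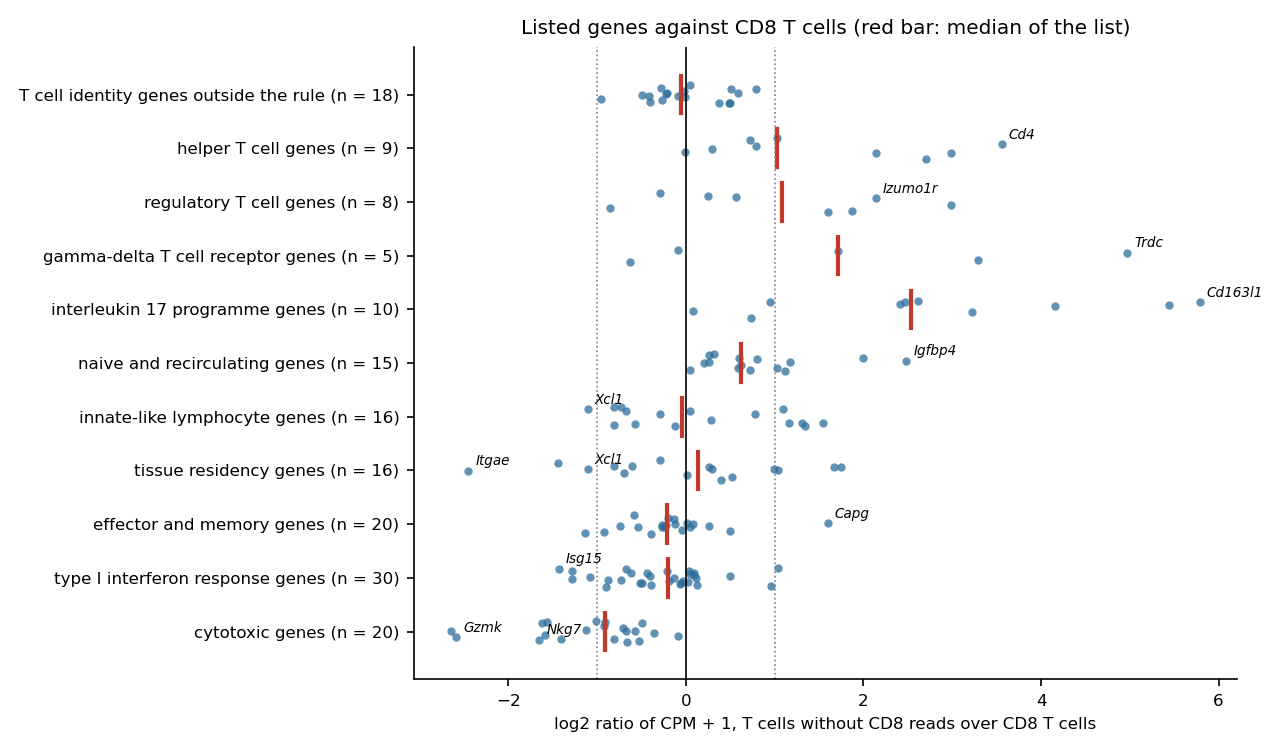
Log2 ratio of CPM + 1, T cells without CD8 reads over CD8 T cells, for each measured gene (point) of 11 gene lists, with the list median as a red bar and dotted lines at 2-fold. The interleukin 17 list has the highest of the medians discussed here (2.54) and the cytotoxic list the lowest (−0.91).

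The tissue residency list split evenly, with 3 higher and 3 lower of 16 (median log2 ratio 0.14). Itgae, the alpha chain of the epithelial anchor CD103, was at 1.70 against 13.7 CPM and Itga1 (CD49a) at 20.3 against 57.1 CPM, whereas Nr4a1, an early gene of receptor signalling, was at 144 against 42.3 CPM. Cd69 was alike at 148 and 146 CPM. In the effector and memory list Capg was higher (226 against 74.0 CPM). Of chemokine receptors beside Ccr7, Cxcr4 was at 25.4 against 64.5 CPM and the gut-homing Ccr9 at 3.39 against 23.3 CPM. Without suffix 4 the log2 ratio went from −1.44 to −2.56 for Itga1, from −1.31 to −2.04 for Cxcr4 and from −2.45 to −3.77 for Itgae. Without suffix 1 that of Ccr9 went from −2.47 to −4.22. Itgae and Ccr9 were then at 0 CPM in the cells without CD8 reads, so the pseudocount sets those ratios. Each of these genes had only 1 UMI outside clusters 4 and 6. In the Th1 list (8 measured), the checkpoint list (7) and the proliferation list (15) no gene differed 2-fold over all cells. Without clusters 4 and 6, Lag3 (log2 ratio −1.50) and Entpd1 (−1.11) of the checkpoint list were lower and Pcna (1.08) and Ccna2 (1.28) of the proliferation list higher. Suffix 3 weighed on the division genes. Without it the log2 ratio went from −0.21 to −3.85 for Mki67 and from 0.99 to −2.59 for Ccna2, both then at 0 CPM. It went from 0.16 to −2.50 for Birc5 and from 0.05 to −1.86 for Cdk1, both then at 4.81 CPM. Without suffix 1 that of Cenpf went from −0.81 to 1.73 (10.7 against 2.52 CPM). Levels this low rest on few UMIs, and ratios at 0 CPM are set by the pseudocount.

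Type I interferon response genes were measured because STING signalling drives them. Of 30, 1 was higher and 4 lower (median log2 ratio −0.20, summed 2504 against 2583 CPM). Without clusters 4 and 6, none was higher and 9 were lower (median −0.55). The CD8 T cells were left as they were, so cells with RNA of other cell types were left out on 1 side only. Ifitm3, 1 of the listed genes, was then at 14.8 against 111 CPM, and the microglia markers summed to 721 against 987 CPM. The part of this in the 9 lower genes was not tested. Isg15, a ubiquitin-like modifier, was at 47.5 against 130.0 CPM, Ifit3 at 25.4 against 63.4 CPM and Isg20 at 30.5 against 65.5 CPM. Tmem173, which encodes STING, had 12 UMIs in 12 of the 243 cells (20.3 against 18.0 CPM in CD8 T cells), at 28.0, 0, 0 and 45.3 CPM by suffix. Of the 8 measured STING pathway genes, none differed 2-fold.

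Against NK cells, 687 of 6498 measured genes (10.6%) were at least 2-fold higher and 871 (13.4%) at least 2-fold lower, with a median log2 ratio of −0.14. Helper genes were higher in 7 of 9 and lower in none. Genes with 0 UMIs in NK cells gave lower bounds: Ass1 was at least 16.4-fold, the T cell surface receptor Cd6 at least 10.99-fold, Cd5 at least 10.3-fold, Cd4 at least 8.503-fold and Cd40lg at least 5.76-fold higher. Cytotoxic genes were lower in 18 of 19, innate-like genes in 12 of 18, and all 15 of a list of NK cell markers, 8 of them lectin receptors and the rest genes such as Eomes, Gzma, Prf1, Fcer1g and Tyrobp. Gzma was at 117 against 8982 CPM, Gzmb at 52.6 against 1145 CPM, Prf1 at 27.1 against 721 CPM and the inhibitory lectin Klra8 at 5.09 against 557 CPM. The log2 ratio of Prf1, −4.68, ranged from −5.60 (without suffix 4) to −3.72 (without suffix 1), that of Klra8, −6.52, from −7.33 (without suffix 3) to −5.57 (without suffix 1), and that of Gzmb, −4.42, was −5.51 without suffix 4. Ncr1, T cell genes and Cd79a entered the choice of both classes.

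Against all other kept cells of the sorted sample, which are mostly microglia and choroid plexus cells, 1708 of 15707 genes (10.9%) were at least 2-fold higher. The highest named ones were Trdc, Cd4, Cd163l1, Cd40lg and Izumo1r. That contrast is largely T cells against other cell types, and the selection on T cell genes shapes it.

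Clustering the 243 cells on their own 1000 most variable genes gave 7 clusters; the genes that lead a cluster were chosen by the clustering and are a description. Cluster 0 (66 cells) carried haemoglobin RNA (erythroid list 14359.6 CPM) and naive genes, with Lef1 in 43 cells, Igfbp4 in 31 and Ccr7 in 28, and Cd4 in 17. Its haemoglobin RNA came mostly from suffix 4, which gave 17 of its cells. Over the class, Hba-a1 went from 968 to 80.9 CPM without that suffix. Cluster 3 (32 cells) was similar in naive genes (summed 3817 CPM), with Ccr7 in 23 and Cd4 in 11. Cluster 1 (51 cells) was led by genes of dividing cells, Cdk1, Pclaf, Rrm2 and Birc5, had Cxcr6 in 32 cells, Ccl5 in 33 and Cd4 in 12, and held no cell of suffix 2. Suffix 3 gave most of its division reads: without it Rrm2 went from 50.9 to 7.21 CPM and Pclaf from 71.2 to 12.0 CPM over the class. Cluster 2 (47 cells) was cytotoxic: Klra9, Klra6, Klra1, Klre1 and Gzma led it, Ccl5 was read in 43 and Nkg7 in 42, its summed cytotoxic level was 17378 CPM, and it held 8 Trdc-positive cells and 1 with Cd4.

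Cluster 5 (15 cells, 10 of them from suffix 3) was the interleukin 17 cluster by its leading genes Cd163l1, Blk, Il17a, Serpinb1a and Tcrg-C1. Its interleukin 17 list summed to 8735 CPM and its gamma-delta list to 5301 CPM, and Trdc was read in 11 cells. All 15 had Cxcr6 and Tmem176b, 8 had the interleukin 7 receptor gene Il7r and 7 had Icos. Lef1, Ccr7, Ccl5, Cd27, Cd28 and Cd4 had 0 UMIs there.

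**Figure D5:**
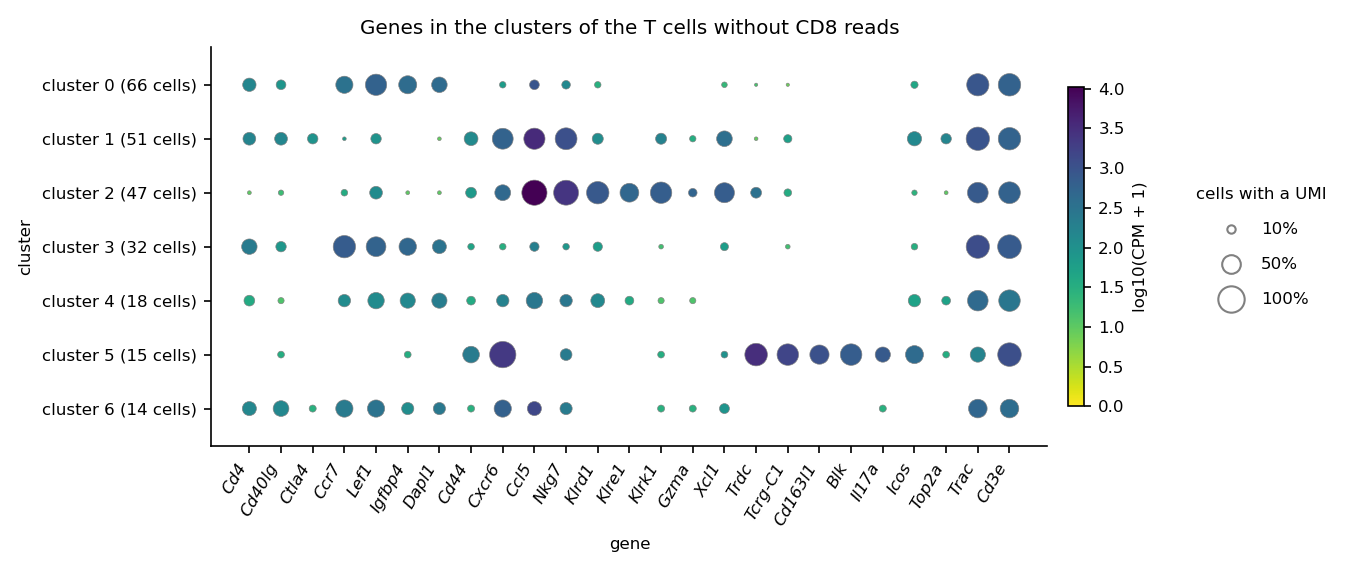
The 7 clusters (rows) of the 243 T cells without CD8 reads and 25 genes (columns); dot size is the percent of cells with a UMI and colour is log10(CPM + 1). Cluster 5 holds Trdc, Cd163l1 and Blk, cluster 2 Klrd1, Ccl5 and Nkg7, and clusters 0 and 3 Ccr7 and Lef1.

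The other 2 clusters carried RNA of other cell types. Cluster 4 (18 cells, median 4339.5 UMIs) was led by Cd74, H2-Aa, Napsa, Cd209a and Lyz2, genes of antigen-presenting myeloid cells. Its MHC class II list summed to 42796 CPM and its microglia list to 9487 CPM, and it held all 3 cells of the class that Scrublet called as doublets. Cluster 6 (14 cells, 10 of them from suffix 3) was led by Krt18, Wfdc2, Folr1, Ttr and Enpp2, genes of the choroid plexus epithelium, with a choroid plexus list of 114261 CPM and Cd4 in 4 cells. Over the class, MHC class II genes were higher than in CD8 T cells in 5 of 8 (Cd74 3284 against 459 CPM, or 2199.7 against 123 CPM without suffix 4); without clusters 4 and 6 none was higher, 6 were lower and Cd74 was at 84.3 CPM, the CD8 T cells being left as they were. The ratios of the lymphocyte genes moved little without these clusters: the log2 ratio was 3.68 for Cd4, 5.28 for Trdc, 2.81 for Cd40lg, 2.58 for Igfbp4 and −1.37 for Ccl5.

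Transcripts of other cells were read in every cell of the class. Ttr, the choroid plexus transthyretin, had a UMI in all 243 cells and in all 385 CD8 T cells (choroid plexus list 13712 against 12517 CPM). Of the 10 microglia markers, 9 were read, at 838 to 2418 CPM summed over suffixes against 283 to 3129 CPM, and 44 cells (18.1%) had at least 3 of them, against 12.5% of CD8 T cells. Monocyte markers summed to 2726 against 2098 CPM, B cell markers to 431 against 316 CPM with 3 of 10 genes at 0, erythroid markers to 4018 against 1848 CPM (327 to 15878 over suffixes), and border macrophage markers to 47.5 against 5.28 CPM. Suffix 4 carried the erythroid difference: without it Hba-a1 was at 80.9 against 83.5 CPM and Hbb-bs at 372 against 409 CPM. With clusters 4 and 6 left out, 3 of the other sums were below those of the CD8 T cells, which were left as they were: 1107 CPM for monocyte markers, 721 against 987 CPM for microglia markers and 7573 CPM for the choroid plexus list. The part of this RNA in the gene ratios was not tested beyond the values without clusters 4 and 6, microglia-marked cells or called doublets.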

How the data were processed

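Single-cell libraries of 2 pooled brain samples, 1 sorted and 1 unsorted, were deposited by the authors as matrices of raw UMI counts per gene and barcode. Counting used Cell Ranger 3.0.2 and the mm10 genome, per the submitters' processing notes; the file headers name version 3.0.2 for the sorted and 3.1.0 for the unsorted sample. The sources used here do not give the annotation release, and whether reads from antisense or overlapping genes were separated cannot be told. Of 13499 sorted barcodes, 10076 passed the limits of 500 genes and 10% mitochondrial UMIs. Doublets were called with Scrublet within each suffix (85 kept cells, 0.844%) and were not removed.

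Counts were summed per class and suffix. Levels were CPM with exact Poisson intervals, shares had Clopper-Pearson intervals, ratios of summed counts had exact binomial intervals, and log2 ratios used a pseudocount of 1 CPM over genes with at least 10 UMIs in both classes together. Beside the 2 T cell classes, NK cells had Ncr1, 0 Cd79a and fewer than 3 T cell genes, and microglia and choroid plexus cells at least 5 markers each. No test was run, since each sample is 1 pool. Genes were named when they had at least 50 CPM in a class and a ratio of at least 2-fold. The 15 highest ratios per direction were taken, and 10 for read groups and clusters. Between classes, suffix ranges (suffixes of at least 20 cells) also had to be free of overlap. For NK cells only suffixes 1 and 4 (44 and 25 cells) were that large. No suffix condition was applied to read groups and clusters. Genes of the selection, predicted genes, immunoglobulin genes and markers of other cells were left out. Every gene of the helper, regulatory, gamma-delta, interleukin 17, innate-like, invariant receptor and group 2 lists could be named; of other lists, the 4 highest and those past 2-fold. The members and all 38 gene lists were chosen with earlier results of these data known. Members were clustered on 1000 variable genes (20 principal components, 15 neighbours, Leiden resolution 1). Gene positions are GENCODE M21 on GRCm38 (30934 of 31053 gene IDs matched). Software was Python 3.11.15 with numpy 2.4.6, scipy 1.17.1, pandas 2.3.3, scanpy 1.11.5, leidenalg 0.10.2, igraph 0.11.9 and matplotlib 3.10.9, and edgeR 4.0.16 in R 4.3.3 for TMM scaling only. The thinning, selection and ratio steps were checked on simulated data. Alternatives were looser and stricter cell limits, other T cell gene minimums, doublets removed, microglia-marked cells removed, each suffix left out, equal suffix weights, TMM scaling, levels without mitochondrial and ribosomal genes, other pseudocounts and UMI minimums, thinning and other cluster resolutions. Some genes of the lists are not reported here by name.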

Additional observations from a re-analysis of the deposited data

How the results depend on the processing

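With 1 pooled sample per group there is no replicate error, so a difference is described against counting error and the 4 suffixes only. No paired analysis was possible because each group is 1 sample and no test was run. The number of T cells without CD8 reads was 69 under the stricter cell limits (1000 genes, 5% mitochondrial) and 165 to 218 with 1 suffix left out; equal weight per suffix gives no value for it. The share with a Cd4 UMI was 26.1% under those limits, 10.4% at 1000 UMIs per cell and 16.7 to 25.5% with 1 suffix left out. The Zbtb16 share, 1 cell, was 0 under the stricter limits and without microglia-marked cells, and 0 to 0.606% with 1 suffix left out. Genes at least 2-fold higher than in CD8 T cells numbered 130 with a pseudocount of 10 CPM, 2069 with no UMI minimum and 65 with a minimum of 50 UMIs, and lower genes 91, 2440 and 42. The median log2 ratio of the regulatory list was 1.75 with at least 2 of the 7 T cell genes, 0.45 without microglia-marked cells and 2.00 with no UMI minimum. That of the gamma-delta list was 3.42 under the stricter limits, 2.50 with 50 UMIs, 2.87 with thinned cells and 1.29 to 2.66 with 1 suffix left out. That of the interleukin 17 list was 1.43 with no UMI minimum and 1.89 to 3.101 with 1 suffix left out. There were 3 clusters at resolution 0.5 and 11 at 1.5, and the cluster with the most Trdc UMIs held 119 cells at 0.5 and 15 at 1.5. Leaving out clusters 4 and 6, from the T cells without CD8 reads alone, was an alternative chosen after seeing the data. It reversed the log2 ratios of Ctsh (−0.62) and Cd300c2 (−0.21). Causes of these shifts were not tested beyond the fewer genes or cells that some settings use. The median log2 ratio of all genes stayed within 0.1 of 0 in each setting (−0.04 with TMM scaling, 0.08 under the stricter limits).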

Other observations

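Immediate early genes, which cells switch on within minutes of stimulation or of tissue dissociation, were at least 2-fold higher in the T cells without CD8 reads than in CD8 T cells in 5 of 17 measured and lower in 1 (median log2 ratio 0.70). Without clusters 4 and 6, whose cells held myeloid or choroid plexus RNA, none of 16 was higher and 1 was lower (median 0.49). MHC class I genes, which all T cells express, did not differ 2-fold in any of 13 (median −0.24). Cytokine receptor genes differed in 1 of 20 (median 0.18). In a list of NK cell markers, which holds lectin receptors and genes such as Eomes, Fcer1g and Tyrobp, 4 were higher and 2 lower of 11 against CD8 T cells (median 0.37), and 3 higher and 1 lower without those clusters. Of the 8 measured senescence genes, none differed 2-fold (median 0.08).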
